A study of Mus musculus with 16 samples.

Results

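Irf4, Prdm1, Batf, Ahr, Maf, Nfil3, Id2, Id3 and Myb are 9 transcription factor genes linked to the differentiation and upkeep of effector regulatory T cells. They were chosen by name, for what is known of these factors and with earlier results of these data known. All 9 were among the 12798 genes tested, of 19531 with a probe set of their own on the array. Each was measured by 1 probe set, and the filter left out none of them. Male mice aged 6 weeks were the source of splenic CD4+ T cells, whose expression was measured on 16 Affymetrix arrays. The GFP-positive regulatory T cells (Treg) and GFP-negative conventional T cells (Tconv) came from mice with a GFP reporter at Foxp3, the gene of the factor that defines Treg. The reporter was either Foxp3-Fusion-GFP (fusion), in which GFP is joined to the Foxp3 protein, or Foxp3-ires-GFP (ires), in which an internal ribosome entry site lets the transcript give Foxp3 and GFP as separate proteins. Both alleles were present on the NOD background, a strain prone to autoimmune diabetes, and on the B6 background. The 8 groups were thus NOD fusion, NOD ires, B6 fusion and B6 ires Treg, and the Tconv of the same 4 lines, with 2 arrays each. Every group carried a reporter, the Tconv included. The cells had been sorted in 2 rounds, to a purity given as over 99.0%. Nothing in the labels tells if both arrays of a group stem from different animals or from pooled ones, and p-values therefore measure the spread between arrays, which may be technical.

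Naive-like Treg become effector Treg after antigen and costimulation. IRF4, induced through the antigen receptor, binds DNA together with the AP-1 factor BATF, and IRF4 and Blimp-1 (the product of Prdm1) together drive effector Treg genes such as Il10 and Icos. The aryl hydrocarbon receptor (Ahr), c-Maf (Maf) and NFIL3 (Nfil3) act in cytokine and tissue programmes of T cells, c-Maf also in IL-10 production. ID2 and ID3 bind E proteins and keep them from DNA, and ID3 is typical of less differentiated T cells. MYB is needed for effector Treg differentiation and is known from progenitor and memory-like lymphocytes.

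Values are log2 intensities, differences are on the log2 scale with the SE of a linear model over all 16 arrays, and a gene was called at a Benjamini-Hochberg adjusted p under 0.05 over all tested genes (limma). Intensities of different probe sets cannot be set against each other. Median intensities of the arrays lay between 86.7 and 99.0. The sort showed in Foxp3, at 11.37 to 12.16 with a median of 11.68 in Treg and at 7.01 to 8.18 with a median of 7.26 in Tconv. Of other cells, the summed intensity of 9 CD8 T, NK and innate lymphoid markers was 704.9 to 959.9 in Treg and 1075 to 1295 in Tconv, with Ncr1, Gzma, Klrk1 and Klrb1c below the filter on low values. The sum of 9 B and plasma cell markers was 501.7 to 612 in Treg and 466.7 to 714.3 in Tconv, with Ms4a1, Cd79a, Pax5 and Jchain below it. The sum of 12 myeloid and dendritic markers was 561.7 to 974.1 in Treg and 580.9 to 1095 in Tconv, with 7 of them below it. The top of both Tconv ranges was 1 array, replicate 1 of NOD fusion Tconv.

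Promoter sequences of 7 of the 9 genes were found in RefSeq (GRCm38.p6), as windows of 250 bases before to 50 bases after the annotated start. The 250 bases before the start are shown for both genes at the centre of the effector programme, with the AP-1 motif TGANTCA and the AhR core GCGTG in capitals on either strand (CACGC is the core on the other strand). Irf4 lies on the plus strand (chr13:30748983-30749232) and Prdm1 on the minus strand (chr10:44458749-44458998), and both are written 5′ to 3′ in the direction of transcription.
Irf4: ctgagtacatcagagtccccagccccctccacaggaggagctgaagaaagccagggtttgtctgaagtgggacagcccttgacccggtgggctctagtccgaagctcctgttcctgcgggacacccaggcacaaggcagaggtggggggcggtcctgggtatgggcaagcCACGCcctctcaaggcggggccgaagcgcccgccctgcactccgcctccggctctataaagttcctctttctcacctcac
Prdm1: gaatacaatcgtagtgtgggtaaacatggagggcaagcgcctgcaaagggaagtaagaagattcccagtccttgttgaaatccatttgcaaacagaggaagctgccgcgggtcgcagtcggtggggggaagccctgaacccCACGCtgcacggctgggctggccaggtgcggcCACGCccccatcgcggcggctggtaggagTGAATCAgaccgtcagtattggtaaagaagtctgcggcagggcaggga

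The Prdm1 window held 1 AP-1 motif at position -48 and 2 AhR cores at positions -109 and -77, counted from the start site to the first base of the match. The Irf4 window held no AP-1 motif and 1 AhR core, at position -80. Of 32851 promoter windows of the same length, 7.8% held the AP-1 motif and 32.4% the AhR core. The AhR core was in 4 of the 7 windows, those of Irf4, Prdm1, Id3 and Myb. The AP-1 and IRF composite (TTTC, any 4 bases, TGA; in 4.6% of all windows) and the IRF pair (GAAA, any 2 bases, GAAA; in 3.4%) were in 0 of the 7, and the Myb core AACNG was in 7 of 7 against 80.3% of all windows. These are matches of letters in a short window, on both strands, and only an E-box and a Myb core in the Myb window overlapped.

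Id2 and Id3 are shown because the genes went in opposite directions between Treg and Tconv, with the E-box CANNTG, the motif that E proteins bind, in capitals. Id2 lies on the minus strand (chr12:25096093-25096342) and Id3 on the plus strand (chr4:136143572-136143821).
Id2: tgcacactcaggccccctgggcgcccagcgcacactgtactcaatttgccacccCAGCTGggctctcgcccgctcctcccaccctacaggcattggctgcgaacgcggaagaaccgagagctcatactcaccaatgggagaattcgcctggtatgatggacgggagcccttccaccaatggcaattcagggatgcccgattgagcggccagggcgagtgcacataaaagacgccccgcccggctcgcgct
Id3: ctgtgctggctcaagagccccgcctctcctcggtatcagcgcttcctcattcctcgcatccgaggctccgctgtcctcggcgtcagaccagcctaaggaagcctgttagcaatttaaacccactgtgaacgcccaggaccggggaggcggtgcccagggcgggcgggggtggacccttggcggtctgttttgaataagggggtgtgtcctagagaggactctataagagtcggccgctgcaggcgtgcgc

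The Id2 window held 1 E-box, at position -196, and the Id3 window held none. The motif was in 6 of the 7 windows and in 72.3% of all windows.

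The comparison of Treg with Tconv asked how the factors differ between the sorted populations. All 9 genes were called, 8 higher and 1 lower in Treg, where 28.6% of the genes tested were called in either direction. The 8 ranged from 1.34-fold higher for Myb to 3.41-fold higher for Prdm1, and Id2 was 3.31-fold lower. In these bulk samples a smaller share of cells that express a gene cannot be told apart from less RNA per cell.

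Irf4 (probe set 10404389), the AP-1 partner induced by antigen receptor signals, had a lowest, median and highest value of 8.07, 8.20 and 8.87 in Treg, against 6.06, 6.64 and 6.90 in Tconv. The groups did not overlap, and Treg were higher by 1.75 ± 0.09 (3.36-fold, adjusted p = 2.55e-11). Among the Tconv, all 4 NOD arrays lay above all 4 B6 arrays. Prdm1 (probe set 10368970), the gene of the repressor Blimp-1, had 7.41, 8.17 and 8.86 in Treg, against 6.18, 6.29 and 6.77 in Tconv. Again no array overlapped, and the difference was 1.77 ± 0.08 (3.41-fold, adjusted p = 6.89e-12). The Treg arrays of Prdm1 fell into 4 high and 4 low values by allele, as described below. The lowest Tconv values of Irf4 (6.06) and Prdm1 (6.18) lay near the filter at log2 6.06.

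Batf (probe set 10397359), the AP-1 factor that binds beside IRF4, had 8.35, 8.79 and 9.28 in Treg, against 7.70, 7.87 and 8.08 in Tconv. It was higher in Treg by 0.88 ± 0.07 (1.83-fold, adjusted p = 1.19e-08), with no overlap and the smallest difference among the 6 genes from Irf4 to Nfil3. Ahr (probe set 10400006), the ligand-activated receptor, had 7.94, 8.23 and 8.96 in Treg, against 6.60, 6.97 and 7.18 in Tconv, a difference of 1.40 ± 0.07 (2.63-fold, adjusted p = 2.24e-11). Maf (probe set 10581992) had 9.04, 9.63 and 9.98 in Treg, against 7.55, 8.01 and 8.32 in Tconv, and was higher by 1.56 ± 0.09 (2.95-fold, adjusted p = 2.18e-10). Neither gene had an array of one population within the range of the other. Nfil3 (probe set 10409278), a bZIP repressor also known from the circadian clock, had 7.55, 7.89 and 8.61 in Treg, against 6.27, 6.55 and 7.21 in Tconv. The difference was 1.34 ± 0.09 (2.53-fold, adjusted p = 9.82e-10), and the highest Tconv value was that of NOD fusion replicate 1, the array with the highest B cell and myeloid sums among the Tconv.

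Id2 (probe set 10399691) ran the other way, with 7.32, 7.82 and 8.36 in Treg, against 8.92, 9.58 and 10.07 in Tconv. The difference was -1.73 ± 0.10 (adjusted p = 1.27e-10), without overlap. The CD8 T and NK marker sum was also lower in every Treg array than in any Tconv array, and its part in the Id2 result was not tested. Of the 5 markers tested, Klrd1 (whose Treg values, 3.71 to 4.53, lay below the filter), Prf1 and Cd8b1 were lower in Treg, Cd8a was higher by 0.23 ± 0.08 and Eomes was not called. Id3 (probe set 10509163), the related inhibitor, had 7.74, 8.08 and 8.70 in Treg, against 7.28, 7.55 and 7.87 in Tconv. Its ranges overlapped, unlike those of Id2, and Treg were higher by 0.59 ± 0.07 (adjusted p = 1.79e-06). Myb (probe set 10368199) had 7.97, 8.28 and 8.50 in Treg, against 7.48, 7.83 and 8.19 in Tconv, and was higher by 0.42 ± 0.08 (1.34-fold, adjusted p = 0.000272). The overlap came from the B6 Tconv, which at 8.04 to 8.19 lay within the Treg range.

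**Figure D1:**
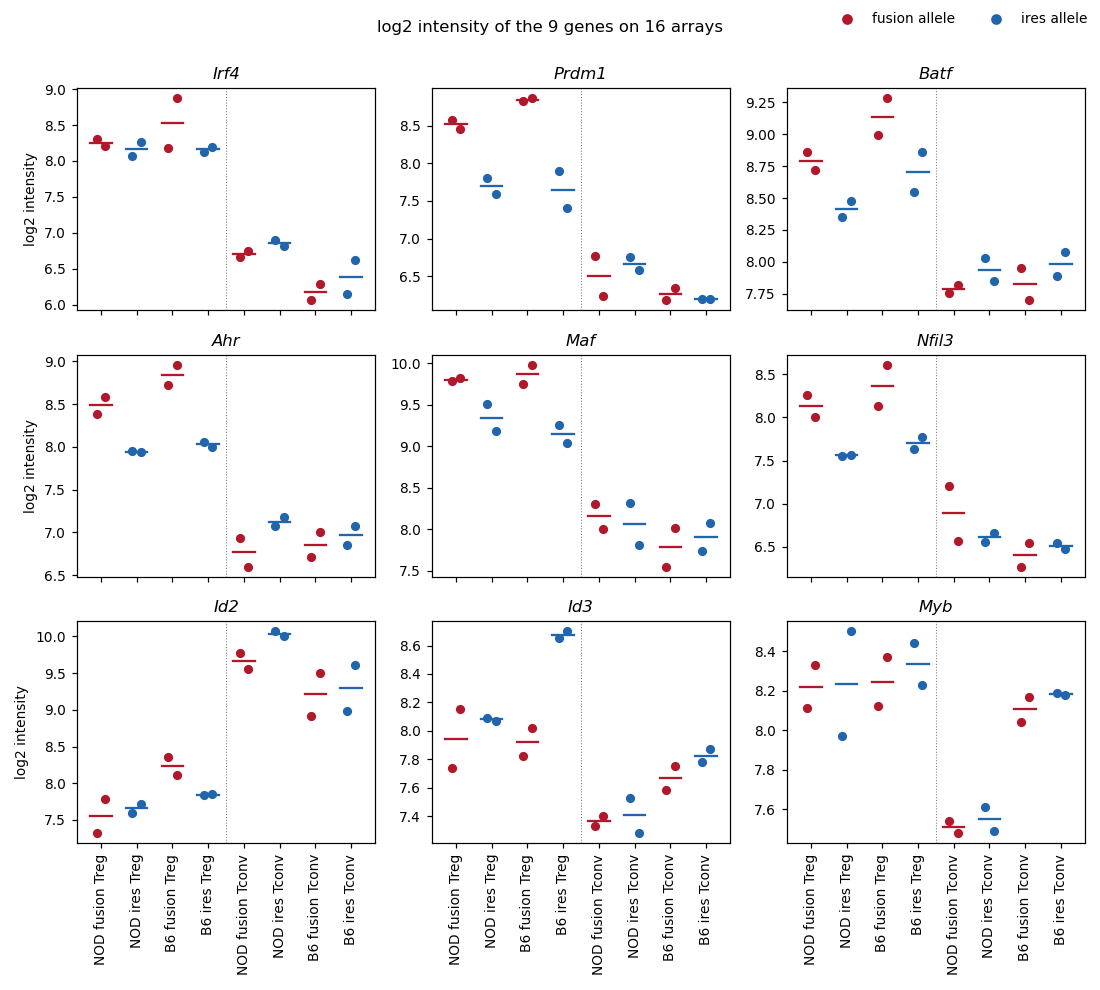
Log2 intensity (vertical axis) of the 9 genes on each of the 16 arrays, by group, Treg left of Tconv in each panel. Points are arrays and bars are means of 2 arrays, red for the fusion allele and blue for the ires allele. In Prdm1 the 4 fusion Treg arrays (8.45 to 8.86) lie above the 4 ires Treg arrays (7.41 to 7.89), and Id2 is higher in all Tconv arrays.

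The distance between Treg and Tconv was not the same in every mouse line. For Prdm1 it was 2.01 in NOD fusion, 1.03 in NOD ires, 2.58 in B6 fusion and 1.45 in B6 ires mice (SE 0.17 each). Ahr followed the same order of lines, with 1.72 in NOD fusion, 0.82 in NOD ires, 1.98 in B6 fusion and 1.07 in B6 ires mice (SE 0.14), and so did Batf, with 0.47 in NOD ires as the smallest and 1.31 in B6 fusion as the largest difference (SE 0.14). For these genes, and for Nfil3 and Maf, both fusion lines had the larger values. The test of that difference, given below, called Prdm1 and Ahr. It did not call Batf (0.56 ± 0.14, adjusted p = 0.239), Nfil3 (0.52 ± 0.18, 0.834) or Maf (0.60 ± 0.19, 0.588). Irf4 was ordered by background, and by allele within each, with 1.55 in NOD fusion, 1.31 in NOD ires, 2.36 in B6 fusion and 1.78 in B6 ires mice (SE 0.18). Id2 was also ordered by background, with -2.10 in NOD fusion, -2.38 in NOD ires, -0.98 in B6 fusion and -1.45 in B6 ires mice (SE 0.20). Myb had 0.71 in NOD fusion and 0.68 in NOD ires, against 0.14 in B6 fusion and 0.15 in B6 ires mice (SE 0.15). The test of the difference by background, given below, called Id2 and not Irf4 or Myb. Id3 had its smallest difference in B6 fusion mice, at 0.25, and its largest in B6 ires mice, at 0.85 (SE 0.14).

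**Figure D2:**
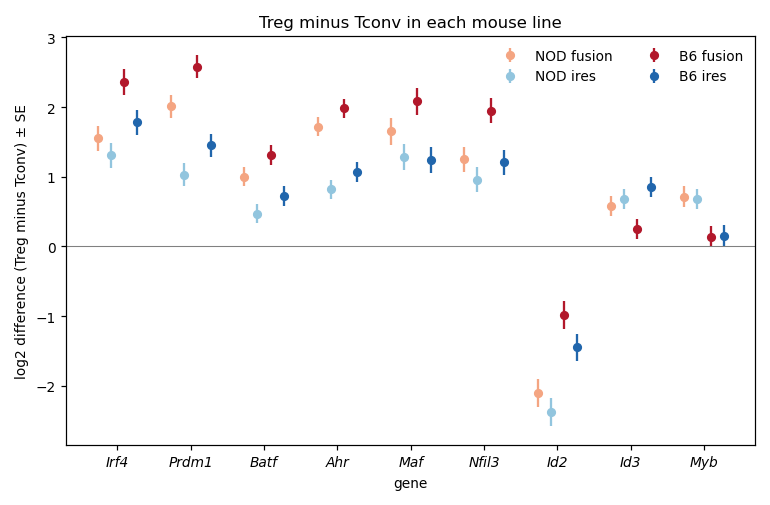
Treg minus Tconv difference (log2, vertical axis) of each gene in each of the 4 mouse lines, with bars of 1 SE. Prdm1 runs from 1.03 in NOD ires to 2.58 in B6 fusion mice, and Id2 is below 0 in all 4 lines.

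The comparison of fusion with ires Treg asked how Treg with either reporter allele differ. Both sides carried a reporter, and the allele cannot be told apart from other differences between the mouse lines. Averaged over both backgrounds, Prdm1, Ahr and Nfil3 were higher and Id3 was lower in fusion Treg. These are 4 of the 9 genes, where 0.609% of the genes tested were called. Maf, Batf, Irf4, Id2 and Myb were not called.

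Prdm1 stood at 8.58 and 8.45 in NOD fusion Treg, against 7.80 and 7.59 in NOD ires Treg, and at 8.83 and 8.86 in B6 fusion Treg, against 7.89 and 7.41 in B6 ires Treg. Every fusion array was above every ires array, and the difference was 1.01 ± 0.12 (adjusted p = 0.000225). Ahr had 8.39 and 8.59 in NOD fusion Treg, against 7.95 and 7.94 in NOD ires Treg, and 8.72 and 8.96 in B6 fusion Treg, against 8.06 and 8.0 in B6 ires Treg. The alleles were likewise apart on all 8 arrays, by 0.68 ± 0.10 (adjusted p = 0.00243). With each of the 16 arrays left out in turn, Prdm1 kept an adjusted p of at most 0.00495 and Ahr of at most 0.026.

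Nfil3 had 8.26 and 8.01 in NOD fusion Treg, against 7.55 and 7.57 in NOD ires Treg, and 8.13 and 8.61 in B6 fusion Treg, against 7.64 and 7.77 in B6 ires Treg. The arrays did not overlap, and the difference was 0.62 ± 0.13 (adjusted p = 0.0362). Its call was lost without NOD fusion replicate 1 (adjusted p = 0.147), B6 fusion replicate 2 (0.157), NOD ires replicate 1 (0.12) or 2 (0.103), or B6 ires replicate 1 (0.139) or 2 (0.102), all Treg arrays.

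Id3, the inhibitor typical of less differentiated T cells, had 7.74 and 8.15 in NOD fusion Treg, against 8.09 and 8.07 in NOD ires Treg, and 7.82 and 8.02 in B6 fusion Treg, against 8.65 and 8.70 in B6 ires Treg. The NOD arrays of the alleles overlapped and the B6 arrays did not. The mean difference was -0.45 ± 0.10 (adjusted p = 0.0445). The call was lost with no filter (adjusted p = 0.067), with arrays centred on their medians (0.122) and with array weights (0.0614). It was also lost without 9 of the 16 arrays, each left out alone. Among the Treg arrays these were NOD fusion replicate 1 (adjusted p = 0.224), B6 fusion replicates 1 (0.189) and 2 (0.0571), NOD ires replicates 1 (0.162) and 2 (0.133) and B6 ires replicates 1 (0.124) and 2 (0.165), and among the Tconv arrays NOD fusion replicates 1 and 2 (0.0573 each).

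Maf, which acts in IL-10 production, had 9.78 and 9.82 in NOD fusion Treg, against 9.51 and 9.18 in NOD ires Treg, and 9.75 and 9.98 in B6 fusion Treg, against 9.26 and 9.04 in B6 ires Treg. The alleles did not overlap, yet the difference of 0.59 ± 0.13 missed the threshold (adjusted p = 0.0573). It was also 0.59 without B6 fusion Tconv replicate 1 or 2 or NOD ires Tconv replicate 1 or 2. These arrays enter only through the shared estimate of the spread, and with any 1 of them left out Maf passed the threshold. Maf also passed it when only the groups compared were fitted (0.00651) and with the interquartile range of each array as a covariate (0.0493). Batf had 8.86 and 8.72 in NOD fusion Treg, against 8.35 and 8.48 in NOD ires Treg, and 8.99 and 9.28 in B6 fusion Treg, against 8.55 and 8.86 in B6 ires Treg. Within each background the alleles of Batf did not overlap, and the mean difference of 0.40 ± 0.10 was not called (adjusted p = 0.0906), except with trend and robust variances (0.0404).

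Irf4 had 8.30 and 8.21 in NOD fusion Treg, against 8.07 and 8.27 in NOD ires Treg, and 8.18 and 8.87 in B6 fusion Treg, against 8.13 and 8.19 in B6 ires Treg. Among these values 8.87, replicate 2 of B6 fusion, stands above the other 7, which lie between 8.07 and 8.30. The difference was 0.22 ± 0.13, with a 95% interval from -0.05 to 0.49 (adjusted p = 0.799), so a change of the size seen in Prdm1 lies outside the interval. Id2 differed by 0.14 ± 0.14 (interval -0.16 to 0.44) and Myb by -0.05 ± 0.11 (interval -0.28 to 0.17).

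Within B6 Treg, Prdm1 (1.20 ± 0.17, adjusted p = 0.00157) and Ahr (0.81 ± 0.14, adjusted p = 0.0154) were higher and Id3 (-0.76 ± 0.14, adjusted p = 0.0188) was lower in fusion cells. These are 3 of 9 genes, against 0.344% of the genes tested. With 2 arrays on each side, Prdm1 lost its call without replicate 2 of B6 fusion (adjusted p = 0.0564) or of B6 ires Treg (0.0883). Ahr and Id3 lost it without any of the 4 arrays, B6 fusion replicate 1 (0.056 and 0.159), B6 fusion replicate 2 (0.232 and 0.0657), B6 ires replicate 1 (0.074 and 0.0952) and B6 ires replicate 2 (0.23 and 0.255), the value of Ahr first in each case. Id3 also lost it with centred arrays (0.0746) and array weights (0.0527), and Ahr with the interquartile range as a covariate (0.0504). Fitted alone, the B6 groups gave calls for Maf (0.72, adjusted p = 0.000972) and Nfil3 (0.66, adjusted p = 0.00381) too.

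Within NOD Treg, limma called 0 of 9 genes, against 0.102% of the genes tested. The differences were 0.82 ± 0.17 for Prdm1 (adjusted p = 0.0877), 0.58 ± 0.18 for Nfil3, 0.55 ± 0.14 for Ahr, 0.45 ± 0.19 for Maf and 0.38 ± 0.14 for Batf. Those of Irf4 and Id3 were 0.08 ± 0.18 and -0.14 ± 0.14. Prdm1 was called in NOD Treg without replicate 1 or 2 of B6 ires Treg (adjusted p = 0.046 each) or of NOD fusion Tconv (0.0357 each), none of which is an array of the comparison.

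The test of the difference between backgrounds called 0 of the 9 genes (limma), against 0.0391% of the genes tested. Id3 had an unadjusted p of 0.00538 in it. The fusion minus ires difference was set against its B6 value, and NOD minus B6 gave -0.38 ± 0.24 for Prdm1 (interval -0.87 to 0.12, adjusted p = 0.763) and 0.62 ± 0.20 for Id3 (interval 0.21 to 1.03, adjusted p = 0.763). A call in B6 without one in NOD is therefore no shown difference between the backgrounds for either gene.

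**Figure D3:**
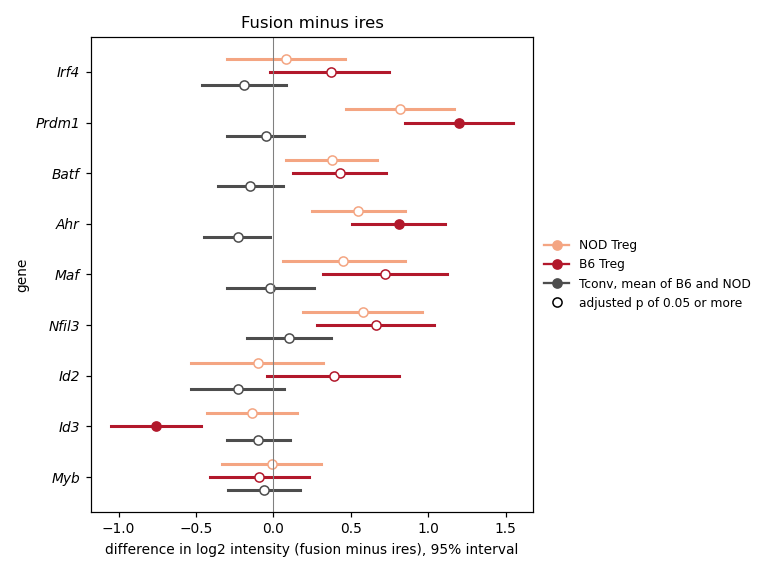
Fusion minus ires difference (log2, horizontal axis) of each gene in NOD Treg, B6 Treg and Tconv, with 95% intervals. Filled points had an adjusted p under 0.05, which in B6 Treg were Prdm1, Ahr and Id3, and the Tconv values lie between -0.23 and 0.10.

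In Tconv, which differ by the same reporter alleles, limma called 0 of 9 genes between fusion and ires, against 0.0234% of the genes tested. The differences ran from -0.23 for Ahr and Id2 to 0.10 for Nfil3, and that of Ahr had an unadjusted p of 0.0339. Prdm1 differed by -0.05 ± 0.12, with an interval from -0.30 to 0.20. On the B6 Tconv arrays it lay at 6.18 to 6.34, near the filter at log2 6.06, and the part of low signal was not tested. Set against each other, the allele difference was larger in Treg than in Tconv for Prdm1 by 1.06 ± 0.17 and for Ahr by 0.91 ± 0.14 (adjusted p = 0.0158 each), 2 of 9 genes against 0.0469% of the genes tested. Prdm1 missed the threshold after quantile normalization (1.05, adjusted p = 0.0548). Without 1 array, Prdm1 lost this call for B6 fusion Treg replicate 1 (adjusted p = 0.0593) or 2 (0.0763), B6 ires Treg replicate 2 (0.0526) and B6 ires Tconv replicate 2 (0.0636). Ahr lost it without B6 fusion Treg replicate 2 (0.0763), B6 ires Treg replicate 2 (0.0526), B6 ires Tconv replicate 2 (0.0639) or NOD fusion Tconv replicate 2 (0.0537). Irf4 differed by 0.41 ± 0.18, with an adjusted p of 1.00.

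NOD and B6 mice were compared within each cell type over both alleles. In Treg, Id2, Batf and Id3 were lower in NOD and none of the 9 was higher, that is 3 of 9 genes where 21.0% of the genes tested were called. Id2 had 7.32 and 7.79 in NOD fusion and 7.60 and 7.72 in NOD ires Treg, against 8.36 and 8.11 in B6 fusion and 7.84 and 7.85 in B6 ires Treg. All 4 NOD arrays were below the 4 B6 arrays, by -0.43 ± 0.14 (adjusted p = 0.0386). Batf was lower by -0.32 ± 0.10 (adjusted p = 0.0322) and Id3 by -0.28 ± 0.10 (adjusted p = 0.0481), both with overlap.

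These calls in Treg were near the threshold, and all 3 were lost with no filter (adjusted p = 0.0561 for Id2, 0.052 for Batf and 0.0759 for Id3) and with centred arrays (0.0804, 0.109 and 0.179 in the same order). Id2 also lost its call with trend and robust variances (0.054), and Id3 with array weights (0.0558) and with only the groups compared (0.0606). Id2 lost its call without replicate 1 of B6 fusion (adjusted p = 0.158), NOD fusion (0.14), NOD ires (0.102) or B6 ires (0.0825), or replicate 2 of NOD ires (0.0658) or B6 ires Treg (0.0941). Batf lost its call without replicate 2 of NOD fusion (0.111), B6 fusion (0.098) or B6 ires (0.152), or replicate 1 of NOD ires Treg (0.102). Id3 lost its call without 7 of the 8 Treg arrays: NOD fusion replicate 1 (0.199, with a difference of -0.18), NOD ires replicates 1 (0.0952) and 2 (0.11), B6 fusion replicates 1 (0.0539) and 2 (0.118) and B6 ires replicates 1 (0.0885) and 2 (0.127), and also without NOD fusion Tconv replicate 1 or 2 (0.0553 each) or B6 fusion Tconv replicate 1 or 2 (0.0542 each). With the interquartile range of each array as a covariate, Irf4 was called lower in NOD Treg (-0.30, adjusted p = 0.0451), against -0.13 ± 0.13 without it (adjusted p = 0.478). The myeloid and dendritic marker sum was 561.7 to 623.4 in NOD Treg and 752.1 to 974.1 in B6 Treg, and its part in these differences was not tested.

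In Tconv, 5 of the 9 genes were called between NOD and B6, 3 higher and 2 lower in NOD, where 15.9% of the genes tested were called. Id2 had 9.77 and 9.55 in NOD fusion and a mean of 10.04 ± 0.05 (SD, n = 2) in NOD ires Tconv, against 8.92 and 9.50 in B6 fusion and 8.98 and 9.61 in B6 ires Tconv. It was higher in NOD by 0.59 ± 0.14 (adjusted p = 0.0104), and 1 B6 array, at 9.61, lay above the lowest NOD array. Irf4 had 6.66 and 6.74 in NOD fusion and 6.90 and 6.82 in NOD ires Tconv, against 6.06 and 6.28 in B6 fusion and 6.15 and 6.62 in B6 ires Tconv. The backgrounds did not overlap, and Irf4 was higher in NOD by 0.51 ± 0.13 (adjusted p = 0.0143). Prdm1 had 6.77 and 6.24 in NOD fusion and 6.75 and 6.58 in NOD ires Tconv, against 6.18 and 6.34 in B6 fusion and 6.20 and 6.19 in B6 ires Tconv. Its difference of 0.36 ± 0.12 (adjusted p = 0.0485) was 0.22 without NOD fusion Tconv replicate 1 (adjusted p = 0.177), the array with the high B cell and myeloid sums, and the part of these cells was not tested. The call was also lost without replicate 1 of NOD ires (0.172), B6 fusion (0.162) or B6 ires (0.117), replicate 2 of B6 fusion (0.0599) or B6 ires Tconv (0.071), or any NOD fusion (0.0513), NOD ires (0.0531) or B6 fusion (0.058) Treg array. It was lost too with no filter (0.0701), array weights (0.059) and only the groups compared (0.0614). The B6 Tconv values of Irf4 (6.06 to 6.62) and Prdm1 (6.18 to 6.34) lay near the filter at log2 6.06, and the part of low signal was not tested.

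Myb, needed for effector Treg differentiation, had 7.54 and 7.48 in NOD fusion and 7.61 and 7.49 in NOD ires Tconv, against 8.04 and 8.17 in B6 fusion and 8.19 and 8.18 in B6 ires Tconv. No arrays overlapped, and the difference of -0.61 ± 0.11 (adjusted p = 0.00100) was called without any single array, with an adjusted p of at most 0.00663. Id3 had 7.33 and 7.40 in NOD fusion and 7.53 and 7.28 in NOD ires Tconv, against 7.58 and 7.75 in B6 fusion and 7.78 and 7.87 in B6 ires Tconv, and was lower by -0.36 ± 0.10 (adjusted p = 0.0207), a call lost with centred arrays (0.0916). Nfil3 (0.29 ± 0.13, adjusted p = 0.118) and Maf (0.26 ± 0.13, adjusted p = 0.172) were not called, Nfil3 except with centred arrays (0.37, adjusted p = 0.0485). The interquartile range of all log2 values on an array was 2.90 to 3.06 on NOD and 2.70 to 2.92 on B6 Tconv arrays. With it as a covariate, an alternative added after the data were seen, Irf4 differed by 0.22 (adjusted p = 0.316), Prdm1 by 0.41 (0.126) and Id2 by 0.40 (0.207), and the call was lost for all 3.

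Other arrays also decided single calls in Tconv. Irf4 lost its call without replicate 1 of B6 fusion (adjusted p = 0.0682), B6 ires (0.0813) or NOD ires (0.0526), or replicate 2 of NOD fusion Tconv (0.0563). Id2 lost it without replicate 1 of B6 fusion (0.069) or B6 ires Tconv (0.064), and Id3 without replicate 2 of B6 fusion (0.0664), NOD fusion (0.0503) or NOD ires Tconv (0.0641). Nfil3 gained a call without replicate 2 of NOD fusion Tconv (0.45). That left replicate 1 for the group, which had the highest Tconv value of Nfil3 (7.21) and the high B cell and myeloid sums. The part of these cells was not tested.

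**Figure D4:**
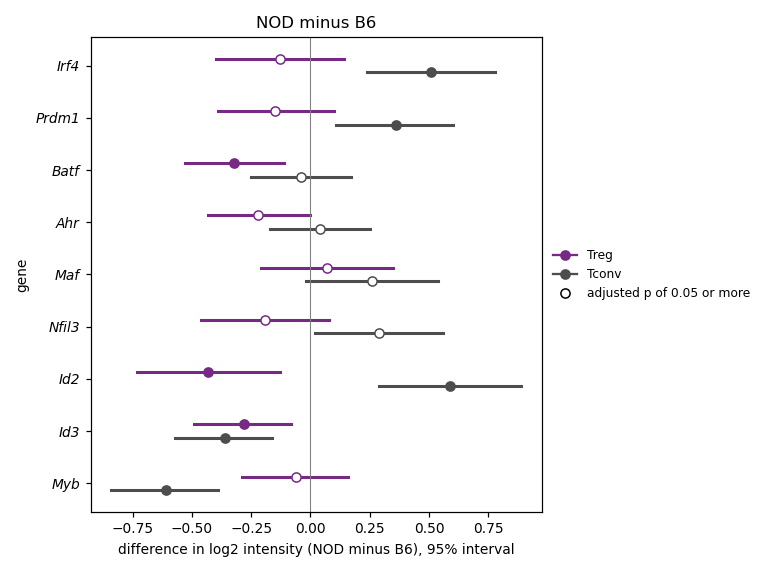
NOD minus B6 difference (log2, horizontal axis) of each gene in Treg and in Tconv, with 95% intervals and filled points for an adjusted p under 0.05. Id2 is at -0.43 in Treg and at 0.59 in Tconv.

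The background difference of Id2 thus had opposite signs in both populations, and the test of that difference gave -1.03 ± 0.20 (adjusted p = 0.0153), the only 1 of the 9 genes called where 0.820% of the genes tested were. Its call was lost without B6 fusion Treg replicate 1 (-0.97, adjusted p = 0.0757). The same difference was -0.64 ± 0.18 for Irf4 (adjusted p = 0.139), 0.55 ± 0.15 for Myb (adjusted p = 0.125) and -0.50 ± 0.17 for Prdm1 (adjusted p = 0.244). Irf4 was called without B6 fusion Treg replicate 1 (0.0218) or B6 ires Tconv replicate 2 (0.0485), and Myb without NOD ires Treg replicate 1 (0.0246).

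Partners and relatives of the 9 factors were read from the same model, as counts and medians beside the median of all genes, which was -0.01 for Treg against Tconv. The counts stand against the 28.6% of all genes tested that were called in that comparison, 2138 higher and 1526 lower. The lists are short, and those of E protein and further Id genes (1 of 5 called) and of AhR partners and targets (1 of 3) lie near that share. Of 7 other IRF genes tested, 4 were higher and 0 lower in Treg (median 0.19), led by Irf5 (1.18 ± 0.06) and Irf8 (0.81 ± 0.07). Of 9 BATF and AP-1 partners, 5 were higher and 0 lower (median 0.22), with Jun at 0.63 ± 0.13 as the largest. NF-kB and NFAT genes, which act downstream of antigen and TNF family receptors, had 5 higher and 1 lower of 7 (median 0.29). Rel, the NF-kB subunit needed for Treg development, was higher by 0.87 ± 0.06 and Nfkb2 by 0.86 ± 0.06. Of 10 BACH2 and quiescence regulators, 2 were higher and 6 lower in Treg (median -0.26). Lef1 was lower by -1.03 ± 0.07 and Satb1 by -0.94 ± 0.07, while Bcl6 and Foxo1 were the 2 that were higher.

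Of 5 E protein and further Id genes, 1 was higher in Treg, Tcf4, and 0 were lower. Hif1a, which shares the AhR partner Arnt, was higher by 1.11 ± 0.07, the 1 called of 3 genes tested in the list of AhR partners and targets. Arnt itself and Tiparp were not called, and the AhR targets Ahrr, Cyp1a1, Cyp1b1 and Nqo1 were below the filter. The list of clock partners of Nfil3 had 4 of 7 higher and 0 lower (median 0.23), and of 3 large and small Maf genes tested 1 was higher and 1 lower. The 1 Myb family gene tested was not called.

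Effector Treg genes, among them known targets of IRF4 and Blimp-1, were higher in Treg in all 24 tested (median 2.10), with Klrg1 at 3.71 ± 0.15 and Itgae at 3.46 ± 0.10. Such a gene can pass the filter on its Treg arrays alone, so this count is no support. Between fusion and ires Treg, 7 of the 24 were higher, 1 was lower and 16 were not called (median 0.45, against -0.00 over all genes). Over all genes tested 0.609% were called in that comparison. Fgl2, a secreted suppressive factor, was higher in fusion Treg by 1.17 ± 0.25 (adjusted p = 0.0401), the cytokine Il10 by 1.09 ± 0.17 (adjusted p = 0.00363) and the chemokine receptor Ccr2 by 0.88 ± 0.20 (adjusted p = 0.0479). Ebi3, a subunit of IL-35, was lower by -0.45 ± 0.10 (adjusted p = 0.0443). Of the transcription factor lists, 1 gene was called between the alleles, 1 of the 10 quiescence regulators tested, and the other lists had 0. It was Bcl6, the repressor that opposes Blimp-1, lower in fusion Treg by -0.46 ± 0.10 (adjusted p = 0.0385).

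Between NOD and B6 Treg, 13 of the 24 effector genes were lower and 1 was higher in NOD (median -0.39, against -0.02 over all genes), and of the 10 quiescence regulators 5 were higher and 0 lower (median 0.28). In Tconv, 6 of the 24 effector genes were higher and 2 lower in NOD (median 0.19, against 0.02 over all genes). The BATF and AP-1 list had 0 higher and 2 lower of 9 in NOD Treg (median -0.24), and 0 higher and 5 lower of 9 in NOD Tconv (median -0.30). Over all genes tested 21.0% were called between the backgrounds in Treg and 15.9% in Tconv, and 2 of 9 is near the first of these.

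For each factor, the tested genes of the most similar pattern were named, by the root mean square difference of mean-centred log2 values over the 16 arrays. Irf4 was closest to Slc2a3 (0.192), Tnfrsf18 (0.222) and Spock2 (0.231), and Prdm1 to Maf (0.252), Adap1 (0.270) and Car5b (0.275). Ahr was closest to Anxa2 (0.208), Il10ra (0.210) and Nfil3 (0.225), and was itself among the 3 genes nearest to Nfil3. Prdm1 was not among the 3 genes nearest to Maf. Nfil3 was closest to Lag3 (0.214) and Twsg1 (0.215), Batf to Grn (0.143), and Maf to Myo3b (0.191). The nearest of the genes kept were Myo10 and Sgk1 (0.322 each) for Id2, Neurl3 (0.200) for Id3 and Junb (0.166) for Myb. Over the 8 Treg arrays alone, Prdm1 was closest to Neb (0.149), Itgae (0.177) and Sytl2 (0.191), and Irf4 to Pdk3 (0.084), Atp6v0b (0.095) and Slc16a6 (0.096). These distances are descriptions over arrays that share their groups, and a gene that varies little lies near many others.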

How the data were processed

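Gene expression was measured on 16 Affymetrix Mouse Gene 1.0 ST arrays, 2 in each of 8 groups. Per the submitters' processing notes, Affymetrix Power Tools and RMA were applied. The authors deposited linear intensities, 1 per probe set and array. For tool versions and genome build the sources used here give nothing. Log2 of the deposited intensities was taken as such, with no pseudocount. Of 25108 probe sets, 21157 carried exactly 1 gene symbol, 1341 several and 2610 none, and the probe set with the highest mean stood for a gene. Genes above the 40th percentile (log2 6.06) on at least 2 arrays were tested, 12798 of 19531. The 8 group means were estimated jointly by limma 3.58.1 under R 4.3.3 (8 residual and 9.80 prior degrees of freedom), with two-sided tests, contrasts of these means and Benjamini-Hochberg adjusted p-values over all tested genes. Precision is limited by having 2 arrays per group.

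The 9 genes, the lists of partners and markers and the tests were chosen with earlier results of these data known. Named genes were the 9, Foxp3 as a check of the sort, up to 4 called genes per list for Treg against Tconv and up to 3 for fusion against ires Treg, and the 3 genes nearest in pattern. Klrd1 belongs to the marker list of CD8 T and NK cells. The lists' names are given with their counts in the report. A list of follicular helper and activated CD4 T cell markers had 4 of 7 higher and 1 lower in Treg, with sums of 1969 to 2839 in Treg and 1474 to 2390 in Tconv. Alternatives were no filter and a filter at the 60th percentile, arrays centred on their medians, quantile normalization, array weights, limma's trend and robust options, averaging a gene's probe sets, replicate blocks, fits of the compared groups alone and leaving out each array, and, added after the data were seen, the interquartile range as a covariate. The model was tested on simulated data. Differences between the strains' sequences and the probes were not examined. Sequences are from RefSeq, GRCm38.p6. Tables and plots were made with Python 3.11.15, numpy 2.4.6, pandas 2.3.3 and matplotlib 3.10.9.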

Additional observations from a re-analysis of the deposited data

Results flagged for a closer look

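For 3 results an effect differed between Treg and Tconv by the test of the difference itself (limma, Benjamini-Hochberg adjusted). The fusion minus ires difference of Prdm1 was larger in Treg than in Tconv by 1.06 (adjusted p = 0.0158), with 4 of 4 fusion Treg arrays above the ires Treg arrays. That of Ahr was larger in Treg by 0.91 (adjusted p = 0.0158), again with 4 of 4 fusion Treg arrays above the ires ones. The NOD minus B6 difference of Id2 in Treg minus that in Tconv was -1.03 (adjusted p = 0.0153). In Treg, 4 of 4 NOD arrays lay below the B6 arrays, while in Tconv the backgrounds overlapped. As given above, all 3 calls were lost without some single arrays, and that of Prdm1 also after quantile normalization. What lies behind these differences was not tested.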

How the results depend on the processing

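All 9 Treg against Tconv calls held under every alternative run. Elsewhere the number of the 9 genes called moved by over 1.5 times in some settings. Without the filter and with centred arrays it was 0 for NOD against B6 Treg (3 as reported). With quantile normalization it was 1 for the allele effect in Treg minus Tconv (2 as reported, Prdm1 having an adjusted p of 0.0548). With trend and robust variances it was 1 in NOD Treg between alleles (0 as reported). With only the groups compared it was 5 in B6 Treg between alleles (3 as reported). With the interquartile range as a covariate it was 2 for NOD against B6 Tconv (5 as reported) and 2 for that difference in Treg minus Tconv (1 as reported, Myb added at 0.60, adjusted p = 0.0464). With a replicate block it was 1 in NOD Treg between alleles, Prdm1 at 0.82 (adjusted p = 0.0311), and the block moved no other count by over 1.5 times. The labels do not tie the numbers, and over 28 pairs of groups the correlation of same-numbered deviations ran from -0.371 to 0.465, over 0.1 in 16 and below -0.1 in 6. All 6 involve NOD ires Tconv, and among the other 7 groups 16 of 21 pairs were over 0.1 and 0 below -0.1. The interquartile range was lower on replicate 1 in 7 of 8 groups, all but NOD ires Tconv. The block took all 8 groups alike, an effect shared by those 7 groups was not fitted on its own, and since the labels give no pairing the arrays were not treated as pairs. With 1 array left out, the counts ran from 2 to 5 for fusion against ires Treg, 0 to 3 in B6 Treg, 0 to 1 in NOD Treg, 0 to 2 for Treg minus Tconv, 0 to 3 for NOD against B6 Treg, 2 to 5 in Tconv, and 1 to 2 for their difference. A group left with 1 array was assumed to vary like the others. Over 1440 such values of single genes, 76 calls were lost, 12 gained and 0 reversed, and 44 values that were not called changed sign. Over 891 values under the other settings, 23 calls were lost, 10 gained and 0 reversed. Signal near background and 2 arrays per group limit what could be detected.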
